A study of Mus musculus with 16 samples.

Results

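To find out which genes follow forced transcription of *Gm15551* in brown adipocytes given a β-adrenergic stimulus, the 8 libraries of isoproterenol-stimulated cells were compared, out of 16 RNA-seq libraries in the series. They are the 4 libraries whose titles end in empty_iso (empty vector cells below) and the 4 whose titles end in pSgRNA-MS2-2+7_iso (sgRNA cells below), each with the replicate numbers 3, 4, 5 and 6. All came from wt1-SAM, 1 immortalized line of mouse brown preadipocytes that stably carries the CRISPR activation system SAM, so results describe this line and not tissue. Every culture was differentiated with rosiglitazone, T3, dexamethasone, insulin, indomethacin and IBMX, was transfected on day 4 with 250 ng of plasmid, received 1 µM isoproterenol for 24 h and was harvested on day 7. The groups differed only in the plasmid. Empty vector cells received the sgRNA (MS2) backbone without a guide, whereas sgRNA cells received a pair of plasmids that encode guides 2 and 7 against *Gm15551*. No library carried a guide against another site, so the effect of a guide as such was not tested. The study reports that *Saa3*, *Lcn2* and *Hp* also changed with other sgRNAs in this line, and reads them as an artefact of the model. The design text of the series speaks of triplicates, whereas the titles give the replicate numbers 3, 4, 5 and 6. No label says whether the replicates were separate cultures. The p-values of the main model, which pairs libraries by replicate number, measure the spread of differences within pairs, which may be technical.

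In SAM, a catalytically dead Cas9 is brought by a guide to a promoter, and activator proteins bound to the Cas9 and to loops in the guide raise transcription there. *Gm15551* is a long noncoding RNA gene, and isoproterenol is a β-adrenergic agonist that raises cAMP in brown adipocytes, which drives lipolysis and thermogenic genes such as *Ucp1*. Adipocytes also make acute-phase proteins and chemokines when inflammatory receptors activate NF-κB and STAT3, and these secreted proteins act on the liver, on leukocytes and on the fat cells themselves.

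The guides are shown first because their sites decide where the activator acts. Both are written 5′ to 3′ as the study designed them:
Gm15551-2: cacttccagttatataagcg
Gm15551-7: agggttttttgctaaaacgg
*Gm15551* (ENSMUSG00000086679.2) was annotated by GENCODE on the minus strand of chromosome 3 at chr3:126667329-126669044 of GRCm38, as an antisense gene inside an intron of *Camk2d*, which encodes a subunit of a calcium/calmodulin-dependent protein kinase and runs on the plus strand (chr3:126596302-126846326). Guide 2 matched chr3:126669053-126669072 on the strand of *Gm15551*, followed by the PAM TGG, between −28 and −9 bases from the GENCODE start. Guide 7 lies on the opposite strand, and its 13 bases at the 5′ end matched chr3:126669181-126669193, between −149 and −137 bases, at the edge of the window that could be read. The 250 bases before the RefSeq start of *Gm15551* (GRCm38.p6, chr3:126668944-126669193, minus strand) hold the site of guide 2 and its PAM, in capitals:
Gm15551: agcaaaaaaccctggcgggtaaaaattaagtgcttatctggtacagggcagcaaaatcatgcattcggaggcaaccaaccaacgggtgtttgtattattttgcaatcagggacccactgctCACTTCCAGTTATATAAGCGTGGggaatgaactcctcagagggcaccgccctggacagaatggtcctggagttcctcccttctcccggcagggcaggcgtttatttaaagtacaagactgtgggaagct
Among 32851 RefSeq promoter windows, guide 2 with an NGG PAM matched none other with 4 or fewer mismatches. Guide 7 had 3 windows at 4 mismatches, those of *Exoc7*, *Kantr* and *Gm26730*. Of these, *Exoc7* had a log2 fold change of 0.09 (SE 0.09) and *Kantr* of 0.08 (SE 0.23), neither past the test, and *Gm26730* was too low to be tested.

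*Gm15551* was higher in sgRNA cells in all 4 pairs, though it remained a rare transcript. The estimated counts were 0, 3, 0 and 5 in empty vector cells of replicates 3 to 6, and 23, 26, 13 and 24 in sgRNA cells. As CPM, counts scaled to library size with TMM factors, these were 0, 0.159, 0 and 0.405 against 1.95, 1.40, 1.00 and 1.63, so the groups did not overlap, which held for 0.429% of all genes in this direction. The 2 counts of 0 allow levels up to 0.363 CPM in replicate 3 and 0.365 CPM in replicate 5, taken as 3 counts. Over the pooled libraries, the level was 0.168 CPM against 1.48 CPM, a ratio of 8.83 (95% counting interval from 4.29 to 21.1). The paired model gave a log2 fold change of 3.14 (SE 0.54, 95% interval from 1.93 to 4.34) in edgeR, but its adjusted p of 0.121 did not pass the threshold over all 12368 genes tested. In the paired edgeR fit of all 16 libraries, *Gm15551* in stimulated cells did pass (3.17, adjusted p = 0.0127). With 8 counts in the whole empty vector group, the size of this change is poorly fixed: with the ribosomal RNA share of each library (given below) as a covariate it was 1.48, and without replicate 6 it was 4.01 with an adjusted p of 0.0443. Whether the counting used read strand was not stated, so reads from the *Camk2d* intron on the other strand could be included.

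The host gene was slightly lower in each pair without passing the test. *Camk2d* was at 50.2, 48.3, 56.9 and 57.8 CPM in empty vector cells and at 45.2, 46.4, 53.4 and 55.2 CPM in sgRNA cells, so lower in 4 of 4 pairs but with overlapping groups. Its log2 fold change of −0.09 (95% interval from −0.24 to 0.06, adjusted p = 0.777) did not pass the test. Of the 45 genes annotated within 1 Mb of *Gm15551*, 5 besides the target were abundant enough to test. Apart from *Camk2d*, these were *Arsj* (−0.11), *Ank2* (0.27), *Larp7* (0.14) and *Zgrf1* (−0.04), in log2 fold change. None passed the test, and *Arsj* and *Ank2* lay at 1.63 and 1.76 CPM in empty vector cells, where the intervals are wide (−0.81 to 0.58 and −0.46 to 1.01).

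The plot of levels by library shows the target and host genes beside 5 genes that are described next.

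**Figure D1:**
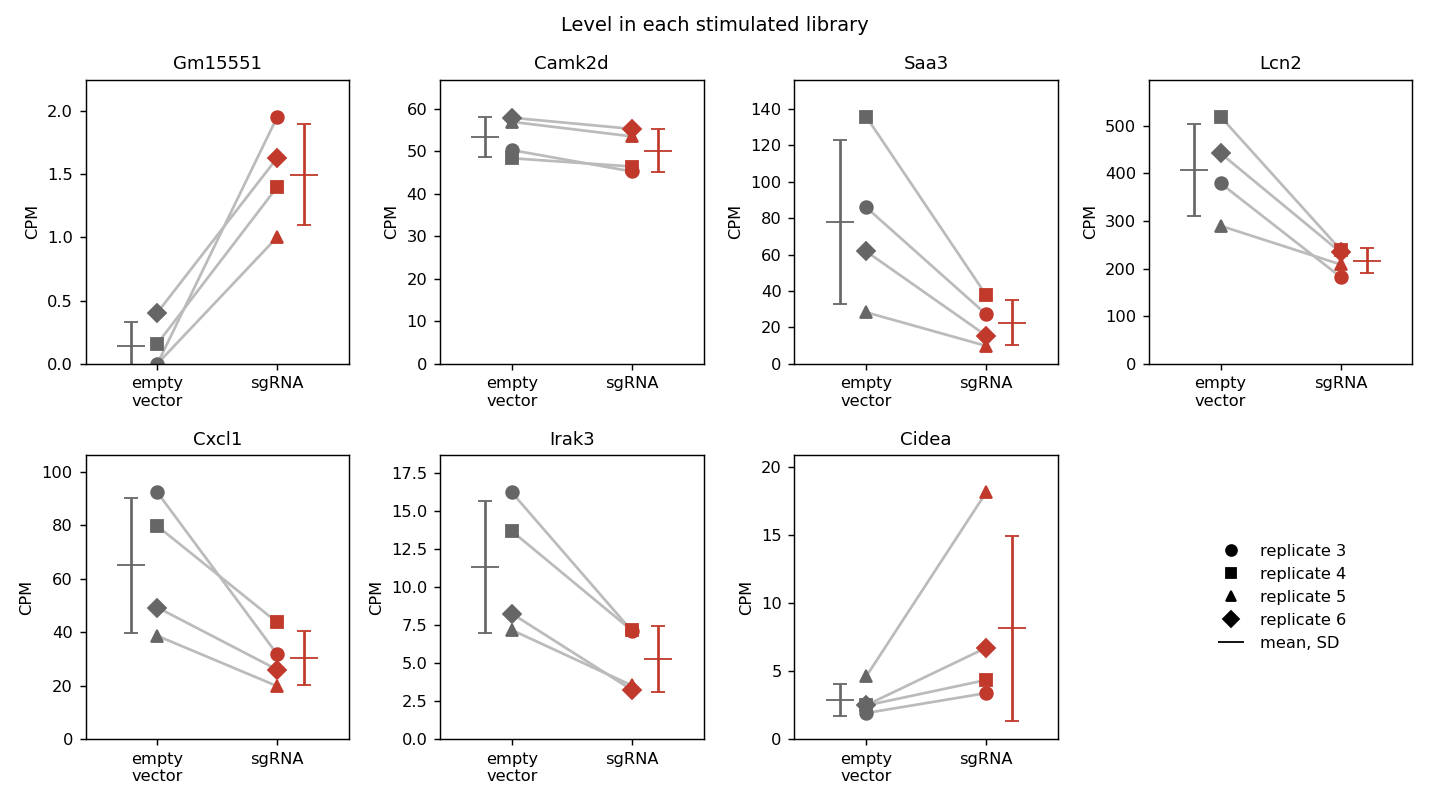
Level in CPM (vertical axis, linear, from 0) of 7 genes in the 4 empty vector (grey) and 4 sgRNA (red) libraries of stimulated cells; symbols mark the replicate number, lines join libraries of the same number, and bars give mean and SD (n = 4). *Gm15551* lies higher in sgRNA cells without overlap, *Camk2d* differs little, and *Saa3*, *Lcn2*, *Cxcl1* and *Irak3* are lower in sgRNA cells in every pair.

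The libraries held between 11066120 and 16546187 estimated counts. Much of this was ribosomal RNA: a single gene took from 11.7% (95% Wilson interval from 11.7% to 11.7%) to 51.8% (51.7% to 51.8%) of the counts, which left between 5900607 and 12959314 counts for all other genes. The share was 41.6%, 22.1%, 51.8% and 31.7% in empty vector cells and 24.0%, 11.7%, 20.04% and 28.7% in sgRNA cells, hence lower with the sgRNA in 4 of 4 pairs (36.8 ± 12.8% against 21.1 ± 7.18%, SD, n = 4). The exact sign-flip test over the pairs gave p = 0.13, the smallest it can give. The cells carried adipocyte markers at high levels, such as *Fabp4* (7910 to 16698 CPM) and *Adipoq* (239 to 534 CPM). Of the markers of brown adipocytes, *Ucp1* was at 4.19 to 15.0 CPM and *Dio2* had 1 count in all 8 libraries together, while *Cox8b* and *Cox7a1* reached at most 1.54 and 1.62 CPM. The labelled brown adipocytes thus held general adipocyte markers at high levels and these brown markers at low levels. Among markers of other cells, the leukocyte gene *Ptprc* had 2 counts in all and the macrophage gene *Adgre1* had 1, but *Cd68* of the same list had 1915 (12.6 to 21.4 CPM). The muscle gene *Myod1* had 0 counts and *Acta1* had 235, and the endothelial gene *Kdr* had 2 and *Pecam1* had 205.

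Few genes passed the test over the whole transcriptome, and those that did were lower in sgRNA cells. They encode acute-phase proteins, a complement factor, a chemokine, a cytokine and a regulator of NF-κB signalling. Of 12368 genes tested, 9 were called (adjusted p under 0.05 and a log2 fold change beyond 0.5 in size), which is 0.0728%, all 9 lower and 0 higher. All 9 were lower in 4 of 4 pairs, as were 8.68% of all genes, but a model paired by replicate favours such genes, so nothing is read from this count. The groups did not overlap for 3 of them, against 0.59% of all genes that were lower without overlap. The median log2 fold change of all genes was 0.00. At an unadjusted p under 0.05 there were 515 lower genes (4.16%) and 522 higher genes (4.22%). These calls rest on the pairing by replicate number, which was part of the main model because libraries of the same number deviated together. Without it, edgeR called 0 genes, with 129 at an unadjusted p under 0.05, and DESeq2 called 1, *Lcn2*. With the pairing kept, *Saa3* alone was called when the ribosomal RNA share was a covariate. *Saa3* was also the only call in a test against the bound of 0.5. Leaving out replicate 3 gave 6 calls, 2 of them higher, and only 4 of the 9 were among them (*Saa3*, *Cxcl1*, *Ptx3* and *Cfb*). Leaving out replicate 4 left 1 call, *Saa3*, whereas 19 genes were called without replicate 5 and 43 without replicate 6, of which 9 and 8 were among the 9. The further calls without replicate 6 included histone genes such as *H4c4* and *H3c1*, and RNAs without a poly(A) tail such as *Rn7s1* and *Rpph1*, all lower.

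**Figure D2:**
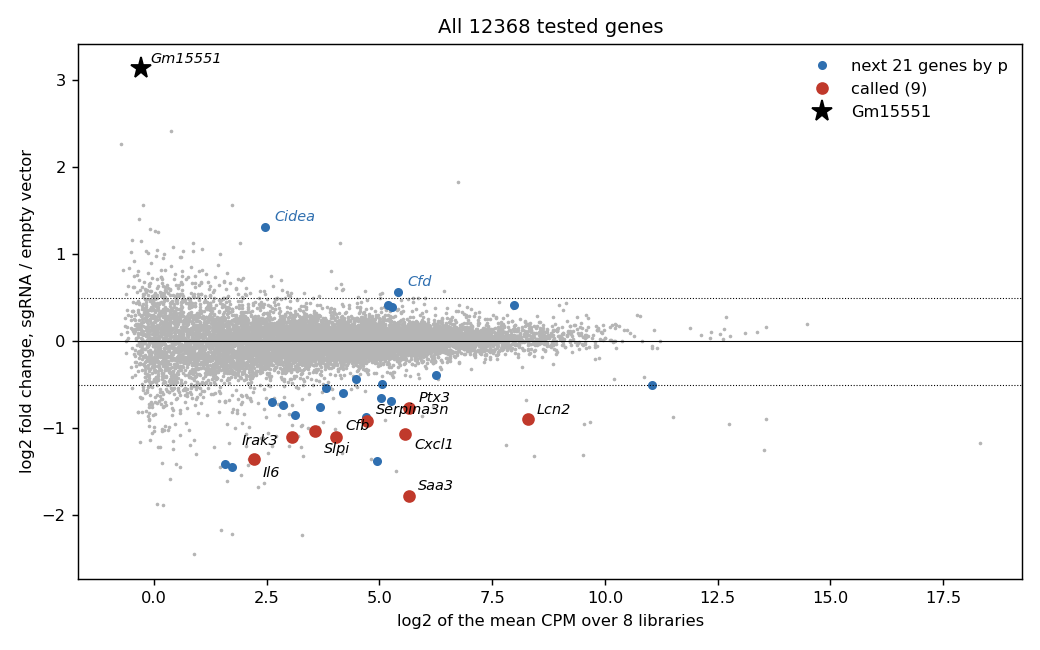
Log2 fold change of sgRNA over empty vector cells (vertical axis) against the log2 of the mean CPM over the 8 libraries (horizontal axis) for 12368 genes. The 9 called genes (red) lie below the dotted line at −0.5, while *Gm15551* (star) lies highest and at the low end of abundance, and the 21 genes next by p are blue.

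The acute-phase proteins formed the largest group among the called genes. *Saa3*, which encodes a serum amyloid A made by inflamed adipocytes and macrophages (ENSMUSG00000040026.8, chr7:46711998-46715700), was at 85.9, 136, 28.3 and 61.7 CPM in empty vector cells and at 27.2, 37.7, 9.80 and 15.5 CPM in sgRNA cells. The replicates differed widely in level, so that the groups overlapped, but within pairs the log2 ratios were close, at −1.65, −1.84, −1.51 and −1.98. *Saa3* thereby had the smallest p of all genes (log2 fold change −1.77, SE 0.09, adjusted p = 3.71e-05). *Lcn2*, encoding lipocalin 2, which binds bacterial siderophores (ENSMUSG00000026822.14, chr2:32384633-32388252), was the most abundant of the 9. It lay at 379, 519, 290 and 442 CPM in empty vector cells and at 182, 240, 209 and 234 CPM in sgRNA cells, without overlap. Its log2 fold change was −0.89 (SE 0.10, adjusted p = 0.013).

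*Ptx3*, encoding pentraxin 3, a soluble pattern recognition protein (ENSMUSG00000027832.5, chr3:66219910-66225805), was at 55.8, 87.4, 33.5 and 78.9 CPM in empty vector cells against 36.5, 51.4, 19.2 and 43.0 CPM. The groups overlapped, and the fall of 0.77 on the log2 scale (SE 0.07, adjusted p = 0.00797) was the smallest of the 9. *Slpi*, encoding a secreted inhibitor of leukocyte proteases (ENSMUSG00000017002.14, chr2:164354070-164389095), stood at 29.4 and 26.1 CPM in empty vector cells of replicates 3 and 4, but at 3.04 and 5.59 CPM in replicates 5 and 6. In sgRNA cells it was at 13.001, 13.1, 1.23 and 3.33 CPM, with log2 ratios of −1.17, −0.98, −1.21 and −0.72 within the pairs (log2 fold change −1.03, SE 0.12, adjusted p = 0.013). *Serpina3n*, a serine protease inhibitor gene (ENSMUSG00000021091.8, chr12:104406729-104414329), was at 11.01, 14.3, 14.1 and 103 CPM against 5.27, 7.32, 11.2 and 46.3 CPM. Replicate 6 was far above the others in both groups. *Serpina3n* only just passed (log2 fold change −0.92, SE 0.13, adjusted p = 0.0494), and its adjusted p was 0.107, 0.394 and 0.161 without replicates 3, 4 and 6. It belongs to a family of near-identical paralogs among which salmon divides reads, so its value is uncertain.

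*Cfb* encodes complement factor B of the alternative pathway (ENSMUSG00000090231.10, chr17:34856374-34862518). Its levels were 28.8, 39.7, 9.01 and 12.4 CPM in empty vector cells and 14.8, 18.0, 5.24 and 4.35 CPM in sgRNA cells (log2 fold change −1.10, SE 0.12, adjusted p = 0.0104).

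A chemokine gene and a cytokine gene were called too. *Cxcl1*, encoding a chemokine that attracts neutrophils (ENSMUSG00000029380.11, chr5:90891241-90893115), was at 92.3, 79.8, 38.7 and 49.3 CPM in empty vector cells and at 31.8, 43.7, 19.9 and 26.1 CPM in sgRNA cells. Replicate 3 showed the largest drop, with a log2 ratio of −1.53, while the other 3 pairs lay between −0.96 and −0.86. The estimate was −1.07 (SE 0.11, adjusted p = 0.0104). *Il6*, encoding the cytokine that induces acute-phase genes (ENSMUSG00000025746.11, chr5:30013114-30019981), was rare, at 8.59, 6.52, 3.65 and 7.86 CPM against 2.63, 3.28, 1.08 and 3.33 CPM. The groups did not overlap, and the log2 fold change was −1.35 (SE 0.18, adjusted p = 0.0468). The call of *Il6* was kept in 6 of 13 alternative fits and lost in 7.

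The last called gene was a regulator rather than a secreted product. *Irak3* encodes IRAK-M, an inhibitor of Toll-like receptor and interleukin-1 receptor signalling that is itself induced by them (ENSMUSG00000020227.10, chr10:120141648-120202130). It was at 16.2, 13.7, 7.18 and 8.26 CPM in empty vector cells and at 7.14, 7.16, 3.55 and 3.26 CPM in sgRNA cells, without overlap. The log2 fold change was −1.11 (SE 0.13, adjusted p = 0.013).

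**Figure D3:**
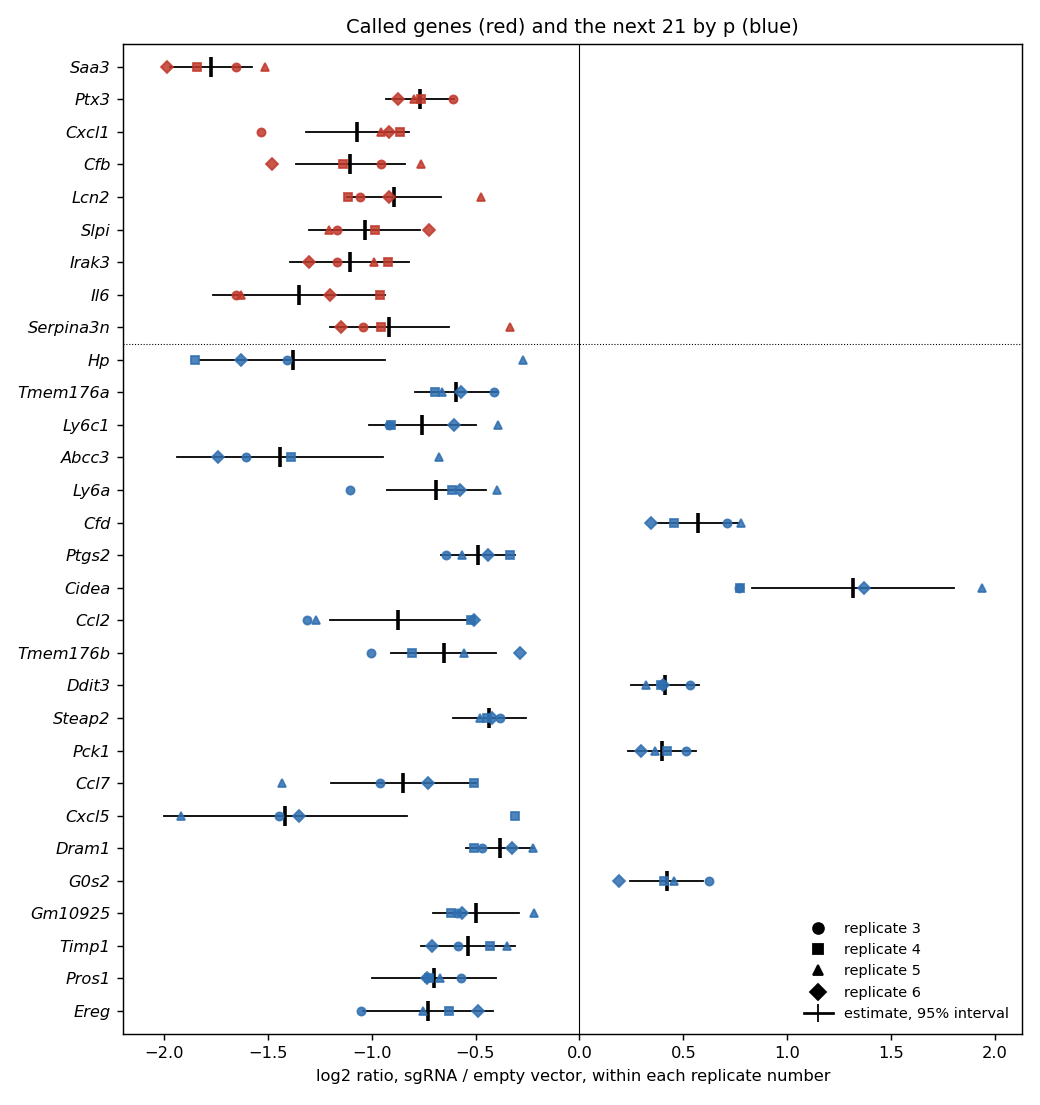
Log2 ratio of sgRNA over empty vector cells within each of the 4 pairs (symbols) with the model's estimate and its 95% interval (black), for the 9 called genes (red, above the dotted line) and the 21 genes next by p (blue). Every pair of each gene lies on 1 side of 0, which is the rule by which the blue genes were chosen and not a finding, and the called genes all lie on the left.

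Promoters of the called genes were searched for letters of the NF-κB and C/EBP motifs, and the shares found were not tested. The RefSeq table of 300-base windows (250 before to 50 after each start, GRCm38.p6) held 8 of the 9 genes, *Cfb* not. A κB consensus occurred on either strand in 3 of these 9 windows, those of *Ptx3*, *Il6* and *Cxcl1*. It occurred in 4.51% of all 32851 windows and 5.01% of the 11807 windows of tested genes. The C/EBP letters TTNNGNAAT, read on either strand, occurred in 3 of the 9 windows, those of *Slpi*, *Il6* and *Serpina3n*. They occurred in 11.5% of all windows and 6.95% of those of tested genes. No κB match overlapped a C/EBP match. The 250 bases upstream are given for the gene with the lowest p and for those that had a κB match wholly upstream, with the κB letters in capitals. They come from chr7:46715677-46715926 (minus strand), chr5:90890995-90891244 (plus strand) and chr5:30012864-30013113 (plus strand):
Saa3: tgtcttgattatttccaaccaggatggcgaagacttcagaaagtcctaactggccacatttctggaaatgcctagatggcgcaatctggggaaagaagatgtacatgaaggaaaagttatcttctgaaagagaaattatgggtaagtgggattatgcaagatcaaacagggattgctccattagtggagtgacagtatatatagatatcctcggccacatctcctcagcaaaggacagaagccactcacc
Cxcl1: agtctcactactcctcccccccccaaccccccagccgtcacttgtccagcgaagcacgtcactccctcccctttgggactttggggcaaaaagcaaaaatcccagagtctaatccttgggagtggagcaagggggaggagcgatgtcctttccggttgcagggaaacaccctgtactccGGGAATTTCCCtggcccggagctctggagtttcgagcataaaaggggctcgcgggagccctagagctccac
Il6: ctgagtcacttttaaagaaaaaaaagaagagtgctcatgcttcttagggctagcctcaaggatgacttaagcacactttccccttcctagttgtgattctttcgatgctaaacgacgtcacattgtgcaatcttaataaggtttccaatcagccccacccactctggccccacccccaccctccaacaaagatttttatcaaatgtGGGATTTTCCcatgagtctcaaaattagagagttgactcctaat
The *Cxcl1* match lies between −71 and −61 bases of the start and that of *Il6* between −44 and −35, while the printed *Saa3* stretch has no κB match. Such matches describe letters and not bound sites.

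The 21 genes next by p had the same direction in every pair but did not pass the test. They are given by value only, 16 of them lower and 5 higher, against 8.68% of all genes that were lower and 9.27% that were higher in 4 of 4 pairs. Next in line was *Hp*, encoding the haemoglobin scavenger haptoglobin, at 49.4, 72.9, 16.4 and 41.1 CPM in empty vector cells against 18.5, 20.1, 13.6 and 13.2 CPM. Its pair of replicate 5 was nearly level, with a log2 ratio of −0.27, and the estimate was −1.38 (SE 0.20, adjusted p = 0.0571). Leaving out replicate 5, *Hp* reached −1.65 with an adjusted p of 0.000113. Among chemokines, *Ccl2* (−0.87), *Ccl7* (−0.85) and *Cxcl5* (−1.42) had adjusted p-values between 0.112 and 0.153. *Ptgs2*, the inducible cyclooxygenase gene, had −0.49 (adjusted p = 0.0939). *Tmem176a* had −0.59 (adjusted p = 0.0701) and *Tmem176b* −0.65 (adjusted p = 0.121). *Dram1* (−0.38) and *Ereg* (−0.73) were lower without overlap, as were 0.59% of all genes. *Steap2* had −0.43, the pseudogene *Gm10925* −0.50 and *Pros1* −0.70. Adjusted p-values of *Dram1*, *Ereg*, *Steap2*, *Gm10925* and *Pros1* lay between 0.153 and 0.155. *Abcc3* and *Timp1*, of the same group, are given below. *Ly6a* (−0.69) and *Ly6c1* (−0.76), surface markers of progenitor cells, both had adjusted p = 0.0701. In bulk RNA, fewer cells of a type and less RNA per cell cannot be told apart.

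The 5 higher genes of this group were those of fat cells and of stress. *Cidea*, encoding a lipid droplet protein that marks brown adipocytes, was at 1.94, 2.49, 4.63 and 2.51 CPM in empty vector cells and at 3.40, 4.36, 18.1 and 6.72 CPM in sgRNA cells. It was higher in every pair, most of all in replicate 5, and had the largest estimate of the 5 (log2 fold change 1.32, SE 0.22, adjusted p = 0.0979). *Cfd*, encoding adipsin, a complement protease that fat cells secrete, was at 24.2, 20.6, 47.2 and 44.0 CPM against 39.7, 28.3, 81.1 and 56.0 CPM (0.57, SE 0.09, adjusted p = 0.0748). The others were *G0s2*, an inhibitor of adipose triglyceride lipase (0.42), *Pck1*, a gluconeogenic and glyceroneogenic enzyme (0.40), and *Ddit3*, the stress factor CHOP (0.41).

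Gene lists put these genes in context. They are described by the members called, by those with an unadjusted p under 0.05 and by the median log2 fold change. The matching background over all genes is 4.22% higher, 4.16% lower and a median of 0.00. No list was tested as a set, and some genes stand in several lists.

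Of 19 acute-phase genes, 5 were called lower (*Saa3*, *Ptx3*, *Lcn2*, *Slpi* and *Serpina3n*), 10 had an unadjusted p under 0.05 and were lower, and 0 were higher. The median was −0.57, and the pair medians were −0.73, −0.76, −0.17 and −0.64, closest to 0 in replicate 5. The summed level of the list was 2417, 2488, 1388 and 2945 CPM against 1471, 1629, 1537 and 2295 CPM, so that it was higher in the sgRNA library of replicate 5 and lower in those of the other 3 pairs. The most abundant members in empty vector cells, the metallothionein genes *Mt1* at 944 CPM and *Mt2* at 507 CPM, had smaller estimates of −0.20 and −0.26 that did not pass. Of 10 chemokine genes, 1 was called (*Cxcl1*), 6 were lower and 1 was higher at an unadjusted p under 0.05, with a median of −0.84. The higher member was *Cxcl10*, an interferon-induced chemokine that attracts T cells, at 18.2, 19.7, 7.79 and 8.10 CPM against 21.2, 42.3, 12.9 and 10.7 CPM (0.65, SE 0.14, adjusted p = 0.235). Its estimate thus had the opposite sign to those of *Cxcl1* and *Ccl2*.

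Of 19 genes of cytokines and their receptors, *Il6* was called, 7 were lower at an unadjusted p under 0.05 and 0 higher (median −0.20). The receptor subunit of oncostatin M, *Osmr*, was at 58.8 ± 17.1 CPM in empty vector cells and 44.2 ± 12.2 CPM in sgRNA cells (SD, n = 4; log2 fold change −0.40, adjusted p = 0.232). The IL-13 receptor subunit gene *Il13ra1* had −1.44, lower in 3 of 4 pairs (adjusted p = 0.261). Of 13 complement genes, *Cfb* was called, and *C3*, the central complement component, had −0.44 (adjusted p = 0.156), against the 0.57 of *Cfd*.

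Genes of the NF-κB pathway itself had estimates nearer to 0. Of 34 genes of NF-κB subunits, inhibitors and regulators, *Irak3* was called and 7 were lower at an unadjusted p under 0.05, 0 higher (median −0.10). Those lower included the inhibitors *Tnip1* (−0.34) and *Tnfaip3* (−0.26), both of which NF-κB induces, and the adaptor *Myd88* (−0.24), none past the adjusted threshold. Of 14 other NF-κB target genes, 7 were lower and 0 higher at an unadjusted p under 0.05 (median −0.22, and −0.07 given the ribosomal covariate), led by *Ptgs2*, by the mitochondrial superoxide dismutase *Sod2* (−0.29, adjusted p = 0.232) and by the prostaglandin E synthase *Ptges* (−0.55, adjusted p = 0.273). Of 16 genes of the STAT3 pathway and its targets, 2 were lower and 3 higher (median −0.04). The matrix protease inhibitor *Timp1* had −0.54 (adjusted p = 0.154), whereas *Cebpb* (0.39) and *Socs2* (0.36) had positive estimates with adjusted p = 0.51.

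Interferon-stimulated genes stayed near the background. Of 42 tested, 0 were called, 3 were lower and 1 higher at an unadjusted p under 0.05, close to the background, and the median was −0.03. The pairs disagreed, with medians of −0.53 in replicate 3, 0.36 in replicate 4, −0.06 in replicate 5 and −0.08 in replicate 6. The 18 antigen presentation genes (median −0.04) and the 10 nucleic acid sensor genes (−0.08) had at most 1 member at an unadjusted p under 0.05 in each direction. Of 17 macrophage and leukocyte markers, 3 were abundant enough to test (*Cd14*, *Cd68* and *S100a8*), with sums of 18.4 to 28.1 CPM in empty vector and 18.4 to 26.3 CPM in sgRNA cells. All 3 had negative estimates (median −0.15, and between −0.82 and −0.03 in alternative fits). *Cd14*, encoding a co-receptor for lipopolysaccharide, was at 4.24, 4.77, 4.63 and 7.13 CPM against 3.31, 3.72, 3.47 and 3.80 CPM, lower in 4 of 4 pairs without overlap (−0.52, adjusted p = 0.445). The part of such cells in the lower inflammatory genes was not tested.

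**Figure D4:**
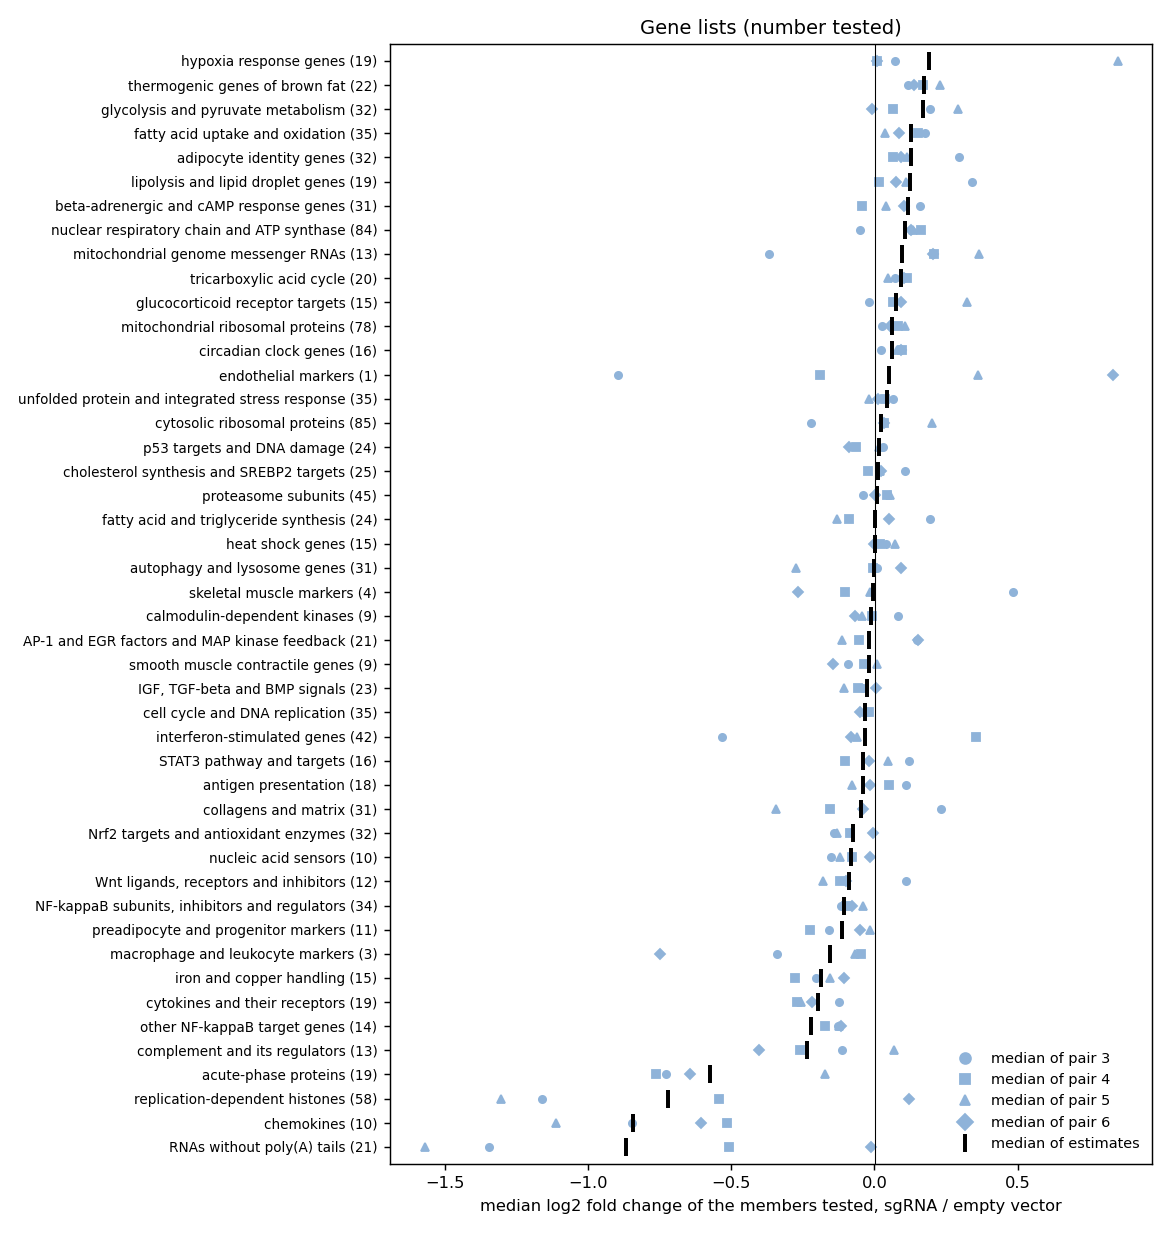
Median log2 fold change of sgRNA over empty vector cells (horizontal axis) for 46 gene lists with the number of genes tested in brackets; black bars are medians of the model's estimates, blue symbols are medians of the log2 ratios within each pair, and the vertical line is the median of all genes. Acute-phase genes and chemokines lie left of the line in every pair, while the histones and RNAs without poly(A) tails do so in replicates 3, 4 and 5 but lie near 0 or to the right in replicate 6.

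Estimates of adipocyte genes leaned slightly above 0, with no member called in edgeR's paired model. *Cidea* and *Cfd* were called higher in DESeq2 with the pairing (1.28, adjusted p = 0.00586, and 0.57, adjusted p = 0.00135) and in edgeR when genes with a mean below 5 CPM were left out (both adjusted p = 0.0451). Of 22 thermogenic genes of brown fat, 9 were higher and 0 lower at an unadjusted p under 0.05, 21 had a positive estimate, and the median was 0.17. Pair medians were 0.12, 0.17, 0.23 and 0.14. After *Cidea*, the smallest p-values were those of *Sirt3*, a mitochondrial deacetylase gene (0.38, adjusted p = 0.277), of the fatty acid elongase *Elovl3* (0.26, adjusted p = 0.311) and of the pyruvate dehydrogenase kinase *Pdk4* (0.29, adjusted p = 0.321). *Elovl3* was at 264, 188, 343 and 220 CPM against 278, 243, 426 and 264 CPM. *Ucp1*, the uncoupling protein itself, was at 9.44, 4.19, 4.26 and 6.56 CPM in empty vector cells and at 8.07, 5.65, 15.0 and 7.20 CPM in sgRNA cells. It was higher in 3 of 4 pairs, with a log2 fold change of 0.50 (SE 0.27, 95% interval from −0.09 to 1.10, adjusted p = 0.681), so no difference could be shown at these low counts, and the estimate was −0.43 once the ribosomal RNA share was a covariate. *Ppargc1a*, the coactivator of mitochondrial biogenesis, had 0.23 (SE 0.10, adjusted p = 0.548).

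Adipocyte identity genes gave the same picture. Of 32 tested, 7 were higher and 0 lower at an unadjusted p under 0.05, and 28 had positive estimates (median 0.13). *Adipoq*, encoding adiponectin, was at 454, 342, 260 and 239 CPM against 534, 424, 362 and 266 CPM (0.29, SE 0.07, adjusted p = 0.267). *Pparg*, the master regulator of adipogenesis, differed by 0.07 (95% interval from −0.09 to 0.24), and the fatty acid carrier gene *Fabp4* by 0.16 (−0.08 to 0.40), or by −0.0321 with that covariate. The 19 genes of lipolysis and lipid droplets had a median of 0.12, with 5 higher and 0 lower, but a median of 0.00297 without replicate 3. Besides *Cidea* and *G0s2*, *Plin5*, which tethers droplets to mitochondria, had 0.75, higher in 4 of 4 pairs (adjusted p = 0.264).

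Fuel oxidation genes leaned the same way by small amounts, though not in every pair. Of 35 genes of fatty acid uptake and oxidation, 8 were higher and 0 lower at an unadjusted p under 0.05 (median 0.13), led by the electron transfer flavoprotein *Etfb* (0.45, adjusted p = 0.196) and the acyl-CoA dehydrogenase *Acadm* (0.28, adjusted p = 0.273). Of 84 nuclear genes of the respiratory chain and ATP synthase, 20 were higher and 1 lower (median 0.11), with *Ndufa13* of complex I at 0.42 (adjusted p = 0.155). Pair medians of these 84 genes were −0.05, 0.16, 0.13 and 0.13. Of 32 glycolysis and pyruvate genes, 7 were higher and 0 lower (median 0.17, but −0.02 once the ribosomal RNA share was a covariate). The 13 messenger RNAs of the mitochondrial genome had a median of 0.09, and none had an unadjusted p under 0.05. Their pair medians were −0.37, 0.21, 0.37 and 0.21, so replicate 3 went the other way. In alternative fits their median lay between 0.00724 and 0.25. Lipid synthesis lists had medians near 0. Of 24 genes of fatty acid and triglyceride synthesis, 3 were higher and 1 lower (median 0.00). Of 25 cholesterol synthesis genes likewise 3 were higher and 1 lower (median 0.01). In 4 of 4 pairs, 8 of these 25 were higher and 2 lower, against 9.27% and 8.68% of all genes.

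Genes that respond to the stimulus itself had small estimates. Of 31 β-adrenergic and cAMP response genes, 5 were higher and 0 lower at an unadjusted p under 0.05 (median 0.12, and 0.05 to 0.16 in alternative fits). Estimates were positive for 20 and negative for 11, with pair medians of 0.16, −0.04, 0.04 and 0.10. *Atf3* (0.39, adjusted p = 0.155) and *Dusp1* (0.33, adjusted p = 0.317), both immediate early genes, led the higher ones. *Jun*, a subunit of AP-1, was at 26.4, 49.5, 41.3 and 31.9 CPM against 46.9, 71.2, 52.0 and 38.0 CPM (0.48, adjusted p = 0.179). Of 15 glucocorticoid receptor targets, *Lcn2* was called lower, while 3 were higher at an unadjusted p under 0.05 (median 0.07).

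Iron and copper handling genes leaned below 0, with no member called. Of 15, 6 were lower and 0 higher at an unadjusted p under 0.05 (median −0.19). *Fth1*, the ferritin heavy chain, was at 2394, 2308, 1977 and 1924 CPM in empty vector cells and at 1595, 1647, 1573 and 1619 CPM in sgRNA cells, without overlap (−0.41, SE 0.09, adjusted p = 0.196). The copper ferroxidase gene *Cp* had −1.42 (adjusted p = 0.155) and the zinc and iron importer *Slc39a14* had −0.41 (adjusted p = 0.266). Both are also known as acute-phase genes. Of 32 Nrf2 targets and antioxidant genes, 7 were lower and 1 higher (median −0.07), led by the transporter *Abcc3* (−1.44, adjusted p = 0.0701) and including the quinone reductase *Nqo1* (−0.49, adjusted p = 0.267). Of 19 hypoxia response genes, 4 were higher and 1 lower, and the median was 0.19, with pair medians of 0.07, 0.01, 0.85 and 0.01, so that replicate 5 stood apart, and the median was −0.23 with the ribosomal covariate.

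RNA classes that lack a poly(A) tail had negative estimates, like the ribosomal RNA share. The 21 such RNAs tested summed to 7766, 2533, 9300.4 and 3061 CPM in empty vector cells and to 3004, 1512, 3015 and 2872 CPM in sgRNA cells. Their median was −0.87, and 14 were lower and 0 higher at an unadjusted p under 0.05. *Rn7s1*, an RNA of the signal recognition particle, had −0.87 (adjusted p = 0.185) and the more abundant gene model of *Rmrp*, an RNA of a ribonuclease, had −1.32 (adjusted p = 0.261). Of 58 replication-dependent histone genes, whose messages also end without a tail, 37 were lower and 2 higher (median −0.72). Several histone genes were called lower in DESeq2 with the pairing, among them *H3c15* (−1.04, adjusted p = 0.00151) and *H4c6* (−1.24, adjusted p = 0.00183). With the ribosomal share as a covariate, the medians were 0.02 for the RNAs without a tail and 0.16 for the histones. The histone sums were 708, 287, 702 and 463 CPM against 344, 255, 347 and 484 CPM. Both classes were much lower in sgRNA cells of replicates 3 and 5, where the ribosomal share differed most, and nearly level in replicate 6, where it was 31.7% against 28.7%. In replicate 6, the log2 ratios of the 9 called genes lay between −1.98 for *Saa3* and −0.72 for *Slpi*. *Slpi*, like both classes, had its ratios furthest from 0 in replicates 5 and 3 and nearest to 0 in replicate 6. With the ribosomal share as a covariate beside the pairing, *Saa3* alone was called (−2.05, adjusted p = 0.00624), and the estimates of the 9 lay between −2.05 for *Saa3* and −0.70 for *Slpi*, against −1.77 for *Saa3* and −0.77 for *Ptx3* as the ends of the range without it. The part of RNA selection in the results was not tested further.

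**Figure D5:**
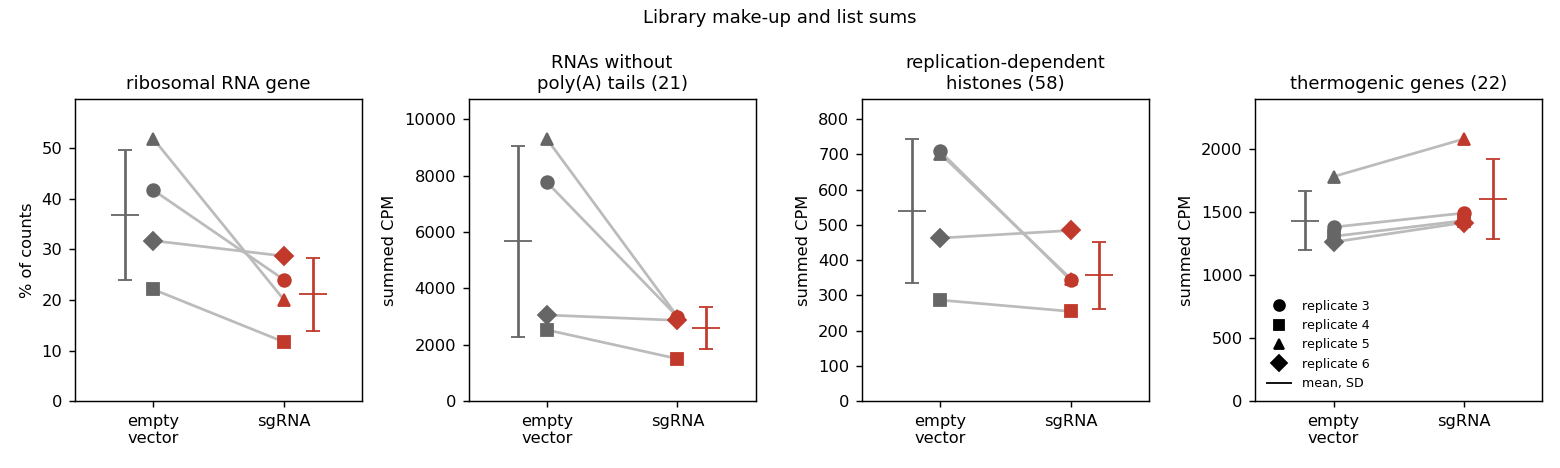
Share of counts taken by the ribosomal RNA gene (% of counts) and summed CPM of 3 gene lists (vertical axes, linear, from 0) in the 4 empty vector (grey) and 4 sgRNA (red) libraries; symbols mark replicate numbers, lines join pairs, and bars give mean and SD (n = 4). In the first 3 panels the sgRNA libraries of replicates 3 and 5 lie well below their partners and those of replicate 6 close to them, while the thermogenic sums are a little higher in each sgRNA library.

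Growth and housekeeping lists had medians near 0. At an unadjusted p under 0.05, 1 of 35 cell cycle genes was higher and 2 were lower (median −0.03). Of 85 cytosolic ribosomal protein genes, 4 were higher and 1 lower (0.02), and of 45 proteasome genes 3 were higher and 0 lower (0.01). Of 35 genes of the unfolded protein and integrated stress response, 4 were higher, *Ddit3* among them, and 1 was lower (0.04), while 7 were higher and 2 lower in 4 of 4 pairs, against 9.27% and 8.68% of all genes. Of 15 heat shock genes, 1 was higher and 0 lower (0.00).

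Markers of preadipocytes leaned lower. Of 11 tested, none was called in edgeR's paired model. At an unadjusted p under 0.05, 3 were lower and 1 higher, and 4 were lower in 4 of 4 pairs, against 8.68% of all genes. The median was −0.11, and between −0.14 and −0.04 in alternative fits, with pair medians of −0.16, −0.23, −0.02 and −0.05. The lower ones were *Ly6a* and *Ly6c1*, given above, and *Cd44* (−0.22), the higher one was *Postn* (0.38, higher in 3 of 4 pairs), and 4 of the 11 estimates were above 0. The part of remaining preadipocytes in the results was not tested. Of 31 matrix genes, 3 were lower and 2 higher (−0.05), and of 9 smooth muscle genes 1 was lower and 0 higher (−0.02).

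Whether the sgRNA effect differed between stimulated cells and the unstimulated cells of the same design was tested as an interaction over all 16 libraries. Of 13150 genes, edgeR called 0 (0.0% called), with 199 (1.51%) at an unadjusted p under 0.05. DESeq2 called 3, *Gm2223* (−31.7), *Gm13509* (34.7) and *Pde2a* (30.3), whose log2 sizes are not read as fold changes. Without replicate 3, edgeR called 1, *Fam177a2* (10.8). For *Saa3* the effect was −1.57 without stimulation, and the interaction was −0.20 (unadjusted p = 0.435). For *Gm15551* it was 1.64, with an interaction of 1.54 (unadjusted p = 0.0181), and for *Il6* it was −0.66, with an interaction of −0.70 (unadjusted p = 0.112), neither past the adjusted threshold.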

How the data were processed

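RNA labelled as polyadenylated was sequenced in paired ends. Per the labels and the study's methods, the authors trimmed adapters with cutadapt, assigned read pairs to GENCODE transcripts (GRCm38) with salmon and deposited estimated counts per gene, which are whole numbers, not normalized and not filtered, for 54347 genes. Tool versions and the use of strand are not given in the sources used here. Of the gene IDs, 54094 matched GENCODE M21, from which coordinates were taken.

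The 8 stimulated libraries were fitted with edgeR 4.0.16 (R 4.3.3): filterByExpr (minimum count 10, minimum total 15), TMM, a quasi-likelihood model with plasmid and replicate number, two-sided tests and Benjamini-Hochberg adjustment over 12368 genes. The SE is the log2 fold change over the root of F. Called means an adjusted p under 0.05 and a log2 fold change beyond 0.5 in size. The deviations of log2 CPM (prior count 2) of same-numbered libraries correlated in every pair (r from 0.303 to 0.649, against −0.543 to 0.330 between different numbers, median −0.261; replicate 3 had 0.303 with its partner and up to 0.330 with another number), so the numbers, which come from the sample titles, were treated as pairing. Deviations were taken from the mean of each group, which pushes r between different numbers below 0 where same-numbered r is positive. The negative median is therefore no separate sign of pairing. The interaction used all 16 libraries. No pair of libraries within a group agreed within sampling noise.

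Alternatives were the fit without the block, DESeq2 1.42.0, RLE scaling, other filters, removal of ribosomal RNA genes, their share as a covariate, a test against the bound and leaving out each replicate. Counts of 12368 genes were also simulated from the means and dispersions of the paired fit. Of 100 genes changed by 1 on the log2 scale 90% were called, and of 100 changed by 2, 96%, with 11 false calls. The changed genes had a mean CPM of at least 1. The simulation takes the pairing as given and holds no shift of the ribosomal RNA share with the plasmid, so it cannot check either. The counting interval of the *Gm15551* ratio, the Wilson intervals and the limit of 3 counts cover counting error only. Intervals of log2 fold changes come from the model's SE, which also holds the spread left between libraries after pairing.

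Named were *Gm15551*, tested genes within 1 Mb, the called genes, the next by p (mean CPM of at least 1, same sign in 4 of 4 pairs) up to 30 in all, fixed adipocyte and inflammatory markers, and up to 4 members of smallest p per list. Further members were named after their values were seen. The samples, the 46 gene lists and the tests were chosen with earlier results of these data known. Promoters and guide sites were read from RefSeq windows of GRCm38.p6, and guides from the study's designs.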

Additional observations from a re-analysis of the deposited data

Results flagged for a closer look

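Among 84 groups of 4 libraries examined for a library far from the other 3 (Dixon's ratio of gap to range at the 95% level), 4 were found, and chance gives about 1 in 20. *Serpina3n* was at 102.9 CPM in empty vector cells of replicate 6, against at most 14.3 CPM in the other 3, and the sgRNA library of replicate 6 was high too. *Ddit3* was at 57.99 CPM in sgRNA cells of replicate 4, against 34.6 to 37.0 CPM. *Pck1* was at 55.8 CPM in empty vector cells of replicate 5, against 24.0 to 27.4 CPM. *Timp1* was at 6.48 CPM in sgRNA cells of replicate 5, against 12.8 to 13.3 CPM. In each of the 4 genes the partner library of the same replicate number deviated in the same direction.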

How the results depend on the processing

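The count of 9 called genes depended on the processing. Without the replicate block it was 0, and 1 in DESeq2 without the block. With the block it was 16 in a fit of all 16 libraries, 40 in DESeq2 (6 higher), 200 without a filter on low counts (31937 genes tested), 14 at a mean CPM of at least 5 (2 higher), 1 with the ribosomal RNA share as covariate and 1 against the bound of 0.5, whereas RLE scaling gave 10 and removal of ribosomal RNA genes 7. Leaving out single replicates gave 1 to 43. The cause was not tested. The interaction gave 3 genes in DESeq2, 0 without the block and 0 to 1 without single replicates. Gm15551 in stimulated cells passed the threshold over all 16 libraries (3.17) and without the filter (3.21), and ranged from 2.77 to 4.01 without single replicates. Signs turned for *Ucp1* (−0.43), *Larp7* (−0.12), *Fabp4* (−0.0321) and *Arsj* (0.31) with the ribosomal covariate, for *Arsj* also without the block (0.0591, and 0.0513 in DESeq2) and between −0.51 and 0.13 without single replicates, and for *Zgrf1* between −0.0648 and 0.00443. None of the 9 called genes turned sign in any alternative. The medians of the histones (0.16), glycolysis (−0.02), hypoxia genes (−0.23) and RNAs without poly(A) tails (0.02) turned sign with the ribosomal covariate. Of all 46 list medians, 21 turned sign in at least 1 alternative and 25 in none. The 17 besides those 4 had medians between −0.09 and 0.05, so their direction is not fixed. Among the lists that kept their sign, medians ranged from −0.76 to −0.44 for acute-phase genes, −1.03 to −0.49 for chemokines, −0.22 to −0.13 for cytokines, −0.26 to −0.07 for other NF-κB targets, −0.45 to −0.17 for complement, −0.21 to −0.0885 for iron and copper genes, 0.15 to 0.20 for thermogenic genes, 0.0795 to 0.17 for adipocyte identity and 0.00297 to 0.17 for lipolysis. The ribosomal share difference in log odds stayed between −1.01 and −0.57 without single replicates.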

Other observations

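Genes of the p53 response had mixed estimates, 15 above and 9 below 0, and none was called. Of the 24, 5 were lower and 1 higher at an unadjusted p under 0.05, against 4.16% and 4.22% of all genes, while the median was 0.02. The lower ones included the death receptor gene *Fas* (4.59 CPM in empty vector and 2.60 CPM in sgRNA cells, log2 fold change −0.82, adjusted p = 0.266), *Zmat3* (−0.45, adjusted p = 0.261), *Eda2r* (−0.53, adjusted p = 0.277) and *Trp53* itself (−0.32, adjusted p = 0.273), each lower in 4 of 4 pairs.

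Of 23 genes of IGF, TGF-β and BMP signals, 3 were lower and 1 higher (median −0.03), with *Igfbp7* at −0.37 and *Fstl1* at −0.33. None of 12 Wnt genes (median −0.09), 16 circadian clock genes (0.06) and 9 calmodulin-dependent kinase genes (−0.01) had an unadjusted p under 0.05. Of 31 autophagy and lysosome genes, 1 was lower and 1 higher. Of 20 genes of the tricarboxylic acid cycle, 3 were higher and 0 lower (0.09), and of 78 mitochondrial ribosomal protein genes 9 were higher and 0 lower (0.06). Of 21 AP-1 and MAP kinase feedback genes, 5 were higher and 0 lower (−0.02). Skeletal muscle markers (4 tested) and endothelial markers (1 tested) had medians of −0.00 and 0.05.

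*Gm12671*, singled out after its values were seen, had the largest positive estimate among genes with a mean over 15 CPM, at 63.1, 202, 0 and 18.6 CPM in empty vector and 125, 173, 122 and 147 CPM in sgRNA cells (1.83, adjusted p = 0.529).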
